A study of Drosophila melanogaster with 3 samples.

Results

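The X chromosome of the fly carried 927 of the 4934 peaks in a list of reproducible chromatin immunoprecipitation (ChIP) peaks, taken as every region of that list that lies on chromosome X of the dm6 build. The libraries came from whole prepupae labelled 24 hours, with males and females pooled, of a transgenic Drosophila melanogaster line that stably carries CG9139 (Rabex-5) with GFP at its C-terminus. Chromatin was sheared by sonication to 200 to 800 bp and precipitated with an anti-GFP antibody in 3 biological replicates of a single group. The peaks were called against 1 control alignment. The list was thresholded by the irreproducible discovery rate (IDR), a measure of how alike regions rank between replicates. A single listed region can still differ between replicates. All animals carried the tagged transgene, animals without the tag were not analysed here, what the control was made from is not given in the labels, and the tissues and sexes of the whole animal cannot be told apart. The files hold no read counts, so the depth behind each value is unknown. X peaks are set beside the 3113 peaks of the autosomal arms 2L, 3L and 3R in the same list, of which 2L carried 890, 3L carried 1122 and 3R carried 1101. The 3 replicates measure only the spread between these libraries.

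Rabex-5 is known as a guanine nucleotide exchange factor of the early endosome, acting on Rab5, and as a ubiquitin ligase, not as a sequence-specific DNA-binding factor. Drosophila males carry a single X, and the MSL complex, which contains the roX1 and roX2 RNAs and the acetyltransferase encoded by mof, raises transcription of that X by spreading over active genes. It first binds high-affinity sites rich in GA repeats, which are also bound in vitro and in cells by the zinc finger protein CLAMP, while the GAGA factor binds shorter GAGAG words at promoters on every chromosome.

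The sequences under 5 of the strongest X peaks show what stood at the summit, the base of highest enrichment. They are given 5′ to 3′ on the plus strand of Release 6, the assembly behind dm6, within 50 bp of the summit, with the Ugalt window stopped at the annotated transcript. Capitals mark any match, on either strand, to 10 words: the GAGA factor word GAGAG, the longer GA repeat GAGAGAGA, a CA repeat (CACACACA), the E-box word CACGTG, the word CACTGAGA, the promoter word GGTCACACT, the DREF word TATCGATA, the nuclear receptor word AGGTCA, the TATA box word TATAAA and the early embryonic word CAGGTAG. The shorter GA word lies inside the longer one.
Ugalt, 28 bp upstream of the TSS, chrX:2703853-2703930: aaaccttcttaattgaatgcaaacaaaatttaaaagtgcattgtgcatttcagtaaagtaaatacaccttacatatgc
CG32772 intron, chrX:4910423-4910523: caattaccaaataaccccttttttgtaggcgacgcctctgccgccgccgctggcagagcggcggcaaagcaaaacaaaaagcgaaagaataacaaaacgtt
CG4004 neighbourhood, stronger summit, chrX:12751271-12751371: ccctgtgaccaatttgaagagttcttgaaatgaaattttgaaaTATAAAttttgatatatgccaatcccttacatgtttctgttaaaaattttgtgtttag
Gapdh2, 166 bp upstream of the TSS, chrX:15867929-15868029: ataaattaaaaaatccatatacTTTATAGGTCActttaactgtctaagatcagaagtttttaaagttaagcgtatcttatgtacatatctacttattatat
ph-p, 452 bp upstream of the TSS, chrX:2137257-2137357: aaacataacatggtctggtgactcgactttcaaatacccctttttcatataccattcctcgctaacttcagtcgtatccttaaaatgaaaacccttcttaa
The windows at Ugalt, CG32772 and ph-p held none of the 10 words, and the only matches in the other 2 were TATAAA and AGGTCA. GA repeats were found under weaker X peaks, of which 4 are shown because the repeat lies at or near the summit.
Trf2, 74 bp upstream of the TSS, chrX:8421241-8421341: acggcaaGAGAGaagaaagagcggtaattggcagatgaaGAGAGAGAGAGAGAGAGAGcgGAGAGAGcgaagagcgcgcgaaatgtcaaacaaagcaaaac
Tlk intron, chrX:3777367-3777467: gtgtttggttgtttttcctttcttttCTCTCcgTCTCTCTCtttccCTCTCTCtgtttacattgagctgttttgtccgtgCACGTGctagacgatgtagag
Mnt intron, chrX:3695627-3695727: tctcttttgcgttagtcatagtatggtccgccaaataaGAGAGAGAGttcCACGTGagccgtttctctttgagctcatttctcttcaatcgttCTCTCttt
CG4004 neighbourhood, weaker summit, chrX:12750389-12750489: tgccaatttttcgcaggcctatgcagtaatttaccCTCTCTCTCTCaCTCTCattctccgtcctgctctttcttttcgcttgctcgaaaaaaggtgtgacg
The Trf2 window, at the promoter of a TBP-related factor, has its repeat at the summit, and its peak had a signal of 264. The Mnt and Tlk windows hold CACGTG, the E-box word, beside the repeat, with peak signals of 155 and 235. The window 4122 bp downstream of the CG4004 TSS belongs to a peak with a signal of 187.

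Peak signal is the authors' enrichment over the control and scales with depth, so replicate values are given relative to the median that the replicate's strongest overlapping candidates reached over all IDR peaks. The strongest X peak lay 28 bp upstream of the transcription start site (TSS) of Ugalt, the UDP-galactose transporter, at chrX:2703696-2704068, and was the fourth strongest of all 4934. Its signal was 2251, and relative to the median it stood at 13.9, 10.7 and 10.2 in replicates 1, 2 and 3. CG32772 held 2 of the next strongest peaks, one in an intron 1371 bp downstream of the TSS (signal 1892) and one in the 5′ UTR 82 bp downstream (1776). The intronic peak stood at 11.5, 8.61 and 9.55 times the median in replicates 1, 2 and 3. All 3 replicates placed both CG32772 peaks at over 7 times their median.

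Ranked between the CG32772 pair was a peak in the 3′ UTR of the gene Lsd-2, which encodes a perilipin on lipid droplets, at chrX:15069269-15070139, with a signal of 1831. It stood at 10.5, 7.18 and 10.4 times the median. The peak upstream of Gapdh2, a glyceraldehyde-3-phosphate dehydrogenase of glycolysis, had a signal of 1174 and stood at 7.06, 5.63 and 5.85 times the median. A pair of intergenic summits 5004 and 6019 bp downstream of the CG4004 TSS had signals of 1461 and 1005. The stronger of the pair stood at 9.28, 6.31 and 6.10 times the median. Replicate 1 was the highest of the 3 at Ugalt, Gapdh2 and the CG4004 pair.

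Other genes next to the 20 strongest X peaks had a range of known functions. Summits lay 4704 bp upstream of Act5C, a cytoplasmic actin, with a signal of 986, and in the 5′ UTR of Nup153, a nuclear pore protein, with 897. The peak 452 bp upstream of a TSS of ph-p, a subunit of Polycomb repressive complex 1, had a signal of 865 and stood at 6.85, 3.74 and 3.13 times the median. Here replicate 1 was more than 1.5 times either other replicate. The acyl-CoA synthetase gene pdgy held 2 of the 20, with signals of 947 and 801. The homeodomain gene ct had one 3731 bp upstream (797), and Tlk, which encodes the Tousled-like kinase, had one in an intron (746). The remaining ones were next to CG43658, CG3726, CG4586, CHES-1-like, IP3K2 and bves. Each of the 20 overlapped a strongest candidate in all 3 replicates, as did 60.2% of all X peaks. They were chosen by a signal derived from the same replicates, so this is not independent support. Of the 20, 8 were within 500 bp of a TSS, 10 were intronic and 7 were intergenic, beside 38.9%, 61.8% and 21.5% of all X peaks. Beyond 1 kb of a TSS lay 11 of the 20, where the median distance over all X summits was 1058 bp. X supplied 16 of the 100 strongest peaks of the list, beside 927 of all its 4934 peaks.

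**Figure D1:**
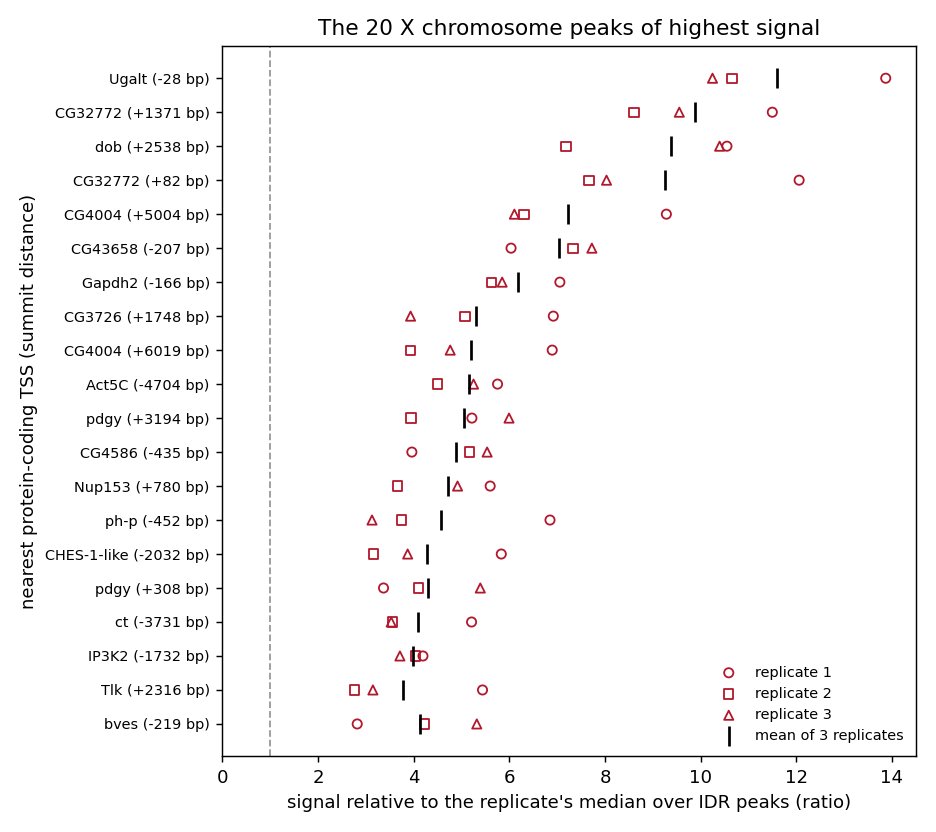
Signal of the 20 strongest X peaks (rows, named by the nearest protein-coding TSS, with the summit's distance from it in bp) relative to each replicate's median over IDR peaks (x axis, ratio); symbols are replicates, bars their means, and the dashed line is the median. Means run between 3.78 and 11.6, and the Lsd-2 3′ UTR peak appears under dob, whose TSS is nearer.

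The weakest X peaks lay in introns of Myc (signal 105.5) and mew (105.7), the integrin gene, and near CG42541 (105.7). None of these 3 overlapped a strongest candidate in every replicate, while 60.2% of all X peaks did, but they were chosen for their low signal. The Myc peak stood at 0.783, 0.393 and 0.607 times the median. The strongest X candidates left out of the list had signals of 105.5 near CG43759, 105.4 at Rala and 105.4 near BCL7-like. The threshold thus falls within a continuous range of signal.

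Signal on X covered a like range to that on the autosomes. The median was 170 on X (quartiles 130 and 267) and 168 on the autosomal arms (quartiles 128 and 256), a ratio of 1.01. Among each replicate's 4934 strongest candidates the ratio was 1.04, 1.00 and 1.02 (mean 1.02 ± 0.0190, SD, n = 3; exact sign permutation over replicates, two-sided p = 0.25, the smallest it can give, adjusted p = 0.321 over 9 relations). With 3 replicates no relation here can reach 0.05. Leaving out a replicate meant keeping the IDR peaks that overlapped a strongest candidate in both others. These lists are thus parts of the same IDR list, which drew on all 3 replicates. Among the peaks kept without replicate 2, the ratio of median signal ranks was 0.983 and that of median relative signal 0.975, both below 1. Peaks with a signal of 400 or more were 110 on X (11.9%) and 318 on the autosomes (10.2%). X held 25.2% of the strongest 404 peaks of the 4 arms (exact 95% interval 21.1 to 29.8) and 22.9% of the whole list of these arms. In the replicates the X share of as large a part of the strongest candidates was 25.1%, 24.9% and 23.0% (p = 0.25 by the same exact permutation test, adjusted p = 0.321). When the IDR list was cut by signal into 10 equal classes, the X share ran between 20.5% and 26.2%, with overlapping intervals.

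X carried 39.5 peaks per Mb of known sequence, and the autosomal arms 37.3, a ratio of 1.06. The ratio was 1.05, 1.04 and 1.05 among the strongest candidates of the replicates (mean 1.04 ± 0.00695, SD, n = 3; exact sign permutation, two-sided p = 0.25, adjusted p = 0.321). The arms differ as much among themselves: 3L carried 40.1 peaks per Mb, more than X, while 2L carried 37.9 and 3R 34.3. A strongest candidate of every replicate overlapped 60.2% of the X peaks and 57.3% of the autosomal ones (two-sided p = 0.25, adjusted p = 0.321 by the same permutation test on the share in each replicate). At least 1 candidate of every replicate overlapped 98.3% of X peaks and 96.5% of autosomal peaks. The median coefficient of variation of a peak's relative signal across replicates was 0.238 on X and 0.239 on the autosomes.

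The X peaks were spread over most of the chromosome, with stretches that were dense or empty. In 23 full bins of 1 Mb the count ran between 3 and 69, with a median of 39 and a coefficient of variation of 0.452, beside 0.552 over the autosomal bins. By arm it was 0.467 on 2L, close to X, and 0.601 on 3L and 0.566 on 3R, which include bins without a summit. The fullest bin was the fourth Mb, with 69 summits over 55 protein-coding genes. Mnt, the Max-binding bHLH repressor that opposes Myc, held 12 of these summits, and Tlk held 11. The third and the seventh Mb followed with 64 each. Raf, the MAP kinase kinase kinase, led the third Mb with 15 summits and CG14434 the seventh with 9. The count of each bin followed the strongest candidates of each replicate (Spearman 0.967, 0.940 and 0.947 over 23 bins, a description since the lists share reads). It was weakly related to the number of protein-coding genes (Spearman 0.270).

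The emptiest bins were the 23rd Mb with 3 summits, the 21st with 9 and the 15th with 20. The longest stretch without a summit spanned 826 kb, chrX:21630000-22455949, with 25 protein-coding genes and only 4 pooled candidates of any strength, and 34.4% of its bases are repeats. The next spanned 532 kb and holds the kinase gene Tak1 and the Runt-family genes RunxA and RunxB, with 45 pooled candidates, and 19.9% of it is repeats. The third spanned 269 kb with 25 protein-coding genes, CG45486 to CG45493 among them, and 22 pooled candidates. Another, of 256 kb, holds the Sdic copies, a family of near-identical genes, with 24 pooled candidates, and 12.8% of it is repeats. How well reads map in these stretches was not tested. Beyond the last summit, 1051 kb at the centromeric end held none.

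**Figure D2:**
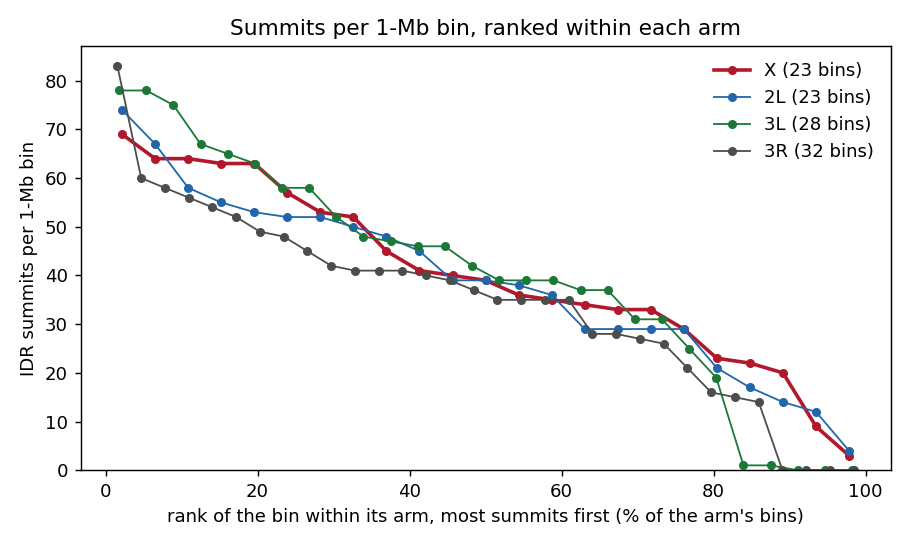
IDR summits per full 1-Mb bin (y axis), with the bins of each arm ranked and their rank given as a percentage of the arm's bins (x axis); each point is 1 bin. The X runs from 69 down to 3, among the curves of the other arms, while 3L and 3R end in bins without a summit.

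Neighbouring summits often lay close together. The median distance between neighbouring summits was 6237.5 bp on X and 7219.5 bp on the autosomes (ratio 0.864, and 0.714, 0.974 and 0.865 in the replicates). When summits within 2 kb were linked, 46.8% of X summits stood in groups and 44.3% of autosomal summits. Groups of 4 or more were 20 of 664 on X and 57 of 2288 on the autosomes, where the totals include single summits. The largest on X held 6 summits, in Raf, in Smr and between CG4004 and Paics, and the largest on the autosomes held 7. The Raf group spanned 5125 bp with a strongest signal of 656, and the Smr group spanned 4511 bp with 659. The intergenic group spanned 4989 bp and held the CG4004 pair described above.

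The genes with most summits were mostly long, and a summit inside overlapping genes was counted for each. CG1677 held 17 over 124.7 kb and kirre, an immunoglobulin-family receptor of myoblast fusion, held 16 over 394 kb. Per 10 kb of gene these were 1.36 and 0.406 summits. Raf followed with 15, or 3.10 per 10 kb, and CG43658 with 14. In the replicates kirre had 21, 14 and 17 of the strongest candidates and Raf 16, 14 and 14. The other genes of many summits were Mnt (12), Tlk, Smr, mamo and Tis11 (11 each), CHES-1-like (10), CG14434 and sdt (9 each), and CG12535 and CG32816 (8 each). Smr encodes a corepressor of the ecdysone receptor, Tis11 a zinc finger protein of mRNA decay, mamo a BTB zinc finger protein and sdt a scaffold of the Crumbs complex. Another 8 genes tied at 7 summits, of which Lsd-2 had the highest summed signal, with its 7 in 7.09 kb, or 9.87 per 10 kb. Its median signal was 199 and 6 of the 7 overlapped a strongest candidate in every replicate, as did 60.2% of all X peaks.

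On X 57 of 2196 protein-coding genes held 4 or more summits (2.60%), and 173 of 8817 on the autosomes (1.96%). Without replicate 2 the X count was 36 and without replicate 3 it was 34, over shorter lists. Genes over 20 kb were 9.02% of X genes and 7.03% of autosomal genes. Within those long genes, 22.2% on X and 20.5% on the autosomes held 4 or more.

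Fewer X than autosomal summits lay between genes in every replicate. Of the X summits 199 lay outside protein-coding genes, or 21.5% (exact 95% interval 18.9 to 24.3), and 1076 of the autosomal ones, or 34.6% (32.9 to 36.3). In the replicates the intergenic share was 22.5%, 20.2% and 20.1% on X, and 36.4%, 33.8% and 33.2% on the autosomes, so the groups did not overlap. The difference averaged -13.5 percentage points (SD 0.387, n = 3; exact sign permutation, two-sided p = 0.25, the smallest possible, adjusted p = 0.321). This relation was picked out after its values were seen. Intergenic sequence makes up 29.1% of X and 33.4% of the autosomes, so the share of peaks was 0.737 times that of bases on X and 1.04 times on the autosomes. On 3R, where intergenic sequence is also 29.1% of bases, 29.9% of summits were intergenic. The weaker pooled candidates showed it too, with 26.3% intergenic on X and 38.5% on the autosomes.

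Introns held a larger share on X. They held 573 X summits (61.8%, interval 58.6 to 65.0) and 1622 autosomal ones (52.1%, 50.3 to 53.9), where introns are 44.3% of X bases and 42.1% of autosomal bases. In 5′ UTRs lay 129 X summits (13.9%) and 359 autosomal summits (11.5%). These UTRs are 3.41% of X bases and 2.92% of autosomal bases. In 3′ UTRs lay 17 X summits (1.83%, interval 1.07 to 2.92) and 25 autosomal ones (0.803%, 0.520 to 1.18). On 3L the share was 1.16%. Of bases, 3′ UTRs are 6.37% on X and 4.64% on the autosomes. The weaker pooled candidates lay there in 2.77% of cases on X and 1.72% on the autosomes. Lsd-2 alone held 4 of the 17, of which 2 share 1 region, and the others included APC7 (signal 346) and CG7872 (299.7). Coding exons, 16.8% of X bases, held 0.971% of X summits and 0.996% of autosomal ones.

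**Figure D3:**
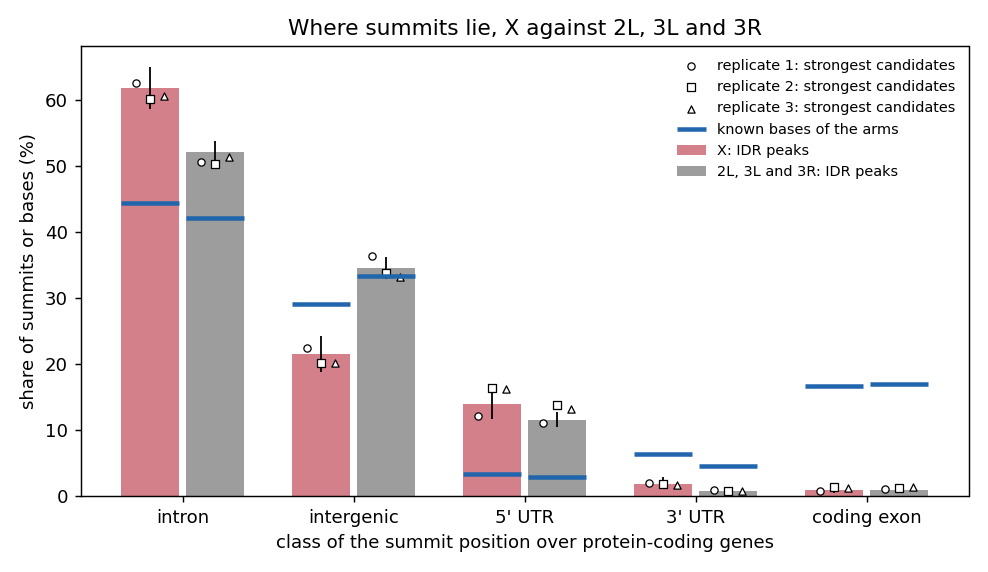
Share of summits (y axis, %) by the class of the summit position (x axis) for X and for 2L, 3L and 3R; bars are IDR peaks with exact 95% intervals, symbols the strongest candidates of each replicate, and blue lines the share of known bases. Intergenic summits are 21.5% on X and 34.6% on the autosomes, and intronic summits 61.8% and 52.1% in the same order.

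Promoter shares did not differ beyond the spread between replicates. Within 500 bp of a protein-coding TSS lay 361 X summits (38.9%, exact 95% interval 35.8 to 42.2) and 1144 autosomal summits (36.7%, 35.1 to 38.5). The difference in the replicates was -1.87, 0.969 and 3.22 percentage points (exact sign permutation, two-sided p = 0.75, adjusted p = 0.75), which spans 0. With promoters taken as 200 bp the difference was -2.44 percentage points, the other way. Upstream of the TSS lay 63.7% of X promoter summits and 67.6% of autosomal ones. Between 300 and 200 bp upstream lay 6.58% of all X summits and 3.50% of autosomal ones, picked out after its values were seen. In the replicates this share was 5.46%, 5.35% and 4.62% on X, against 3.70%, 3.73% and 3.71% on the 3 autosomal arms together. Taken alone, 2L reached 5.11% in replicate 2, above X in replicate 3. The share of bases in this interval was not measured, and the difference was not tested. The X peaks in this interval include those at CG43658, bves, elav and Hex-A. Nearer than 100 bp to the TSS the order was the other way, with 13.2% on X and 15.3% on the autosomes.

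**Figure D4:**
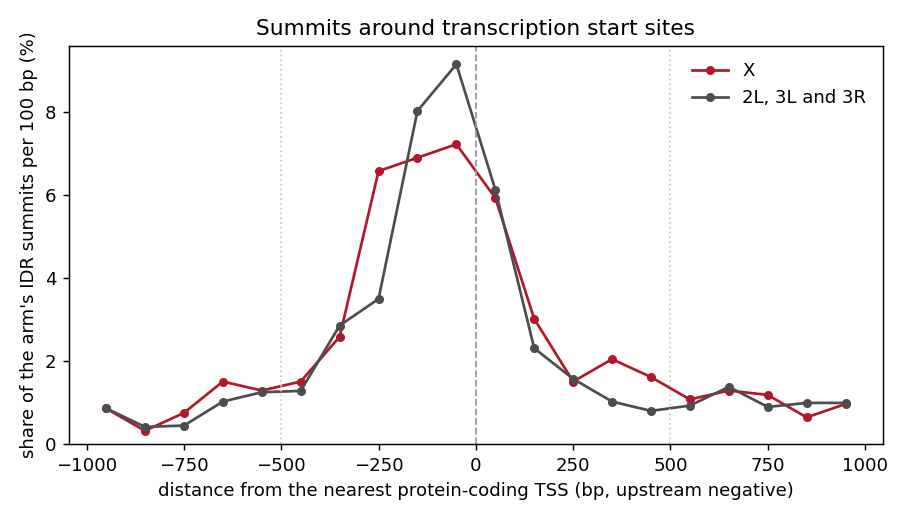
Share of IDR summits in each 100-bp step (y axis, %) by distance from the nearest protein-coding TSS (x axis, bp, upstream negative), for X and for 2L, 3L and 3R; dotted lines mark 500 bp. X is higher between 300 and 200 bp upstream (6.58% and 3.50% on the autosomes) and lower in the 100 bp before the TSS (7.23% and 9.16%).

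Counted by gene, 313 of 2196 protein-coding X genes had a summit within 500 bp of a TSS (14.3%), and 1170 of 8817 autosomal genes (13.3%). The difference was -0.515, 0.794 and 1.37 percentage points in the replicates (exact sign permutation, two-sided p = 0.5, adjusted p = 0.562). Against 3L alone it was -0.278 percentage points. The strongest such summit had a median signal of 192 over the bound X genes and 186 over the bound autosomal genes, where bound means a summit within 500 bp of a TSS.

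The X genes of dosage compensation and sex determination were bound in 1 of 7 cases, or 14.3% as over all X genes. That gene was Sxl, the master switch of sex determination, whose strongest TSS peak had a signal of 158 and stood at 1.06, 0.970 and 0.651 times the median. The acetyltransferase gene mof and the X-linked signal elements run, sisA, sc and upd1 had no summit near a TSS. The noncoding RNA genes held none either: the nearest IDR summit was 5930 bp from roX1, at the peptide transporter gene yin (signal 449), and 2394 bp from roX2, at e(y)2 (signal 109). Weaker candidates came nearer, at 1924, 3651 and 3546 bp from roX1 and at 2382, 483 and 257 bp from roX2 in replicates 1, 2 and 3. In the same order, the nearest strongest candidates lay 5952, 5932 and 5942 bp from roX1 and 18607, 8967 and 18627 bp from roX2. The e(y)2 peak was thus matched by a strongest candidate of no replicate.

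Ecdysone triggers metamorphosis, and 4 of 11 X genes of this group were bound (36.4%, beside 14.3% of all X genes). The peak upstream of mamo had a signal of 665 and stood at 4.16, 3.28 and 3.39 times the median. The Broad gene br (188), the ecdysone receptor partner usp (154) and the nuclear receptor gene Hr4 (119) had weaker ones. In replicate 3 candidates overlapped the usp and Hr4 peaks, at 0.559 and 0.385 times the median, but were not among its 4934 strongest, so 2 genes of the group were bound by that replicate's list.

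Of 30 signalling genes 9 were bound (30%, beside 14.3% of all X genes), with a median signal of 124, below the 192 of all bound X genes. The tyrosine phosphatase gene csw had the strongest (661), at 4.15, 2.87 and 3.38 times the median, and the GSK3 kinase gene sgg the next (565), at 2.33, 3.67 and 3.06. N itself, the Notch receptor, had a peak near its TSS of 108, near the threshold. Developmental transcription factors were bound in 9 of 28 cases (32.1%, beside the same 14.3%) with a median of 140. CrebB led with 445, at 2.51, 2.32 and 2.47 times the median, ahead of ct (335), the head gap gene oc (216) and Mnt (213).

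Of 16 chromatin genes 4 were bound, or 25% beside 14.3% of all X genes: ph-p (865), its neighbour and paralog ph-d (299.8), Top1, topoisomerase I (182), and Smr (113). The paralogs are similar in sequence, so reads may be shared between them. Of 16 metabolic genes 5 were bound, or 31.2% beside the same 14.3%, with a median of 566, and Ugalt (2251), Gapdh2 (1174) and the hexokinase gene Hex-A (566) were far above the other 2, Lsd-2 (152 near its TSS) and ras (143), whose summit is nearer the TSS of stx. Neuronal genes were bound in 6 of 16 cases (37.5%, beside 14.3%), led by the RNA-binding protein gene elav (588) at 3.63, 2.29 and 3.15 times the median, and by the phosphodiesterase gene dnc (344). Polarity and cytoskeleton genes were bound in 3 of 7 cases (42.9%, beside 14.3%), at sqh, myosin light chain (226), Act5C (219) and par-6 (208), whose summit is nearer the TSS of CG8188.

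Ribosomal protein genes were bound in 14 of 15 cases, or 93.3%, beside 14.3% of all X genes, the exception being RpS14a. RpS14a and RpS14b are near-identical neighbours, so the peak listed at RpS14b (199) cannot be assigned to one of them with certainty. The signals ran between 113 at RpL37-1 and 389 at RpS10b, with a median of 246. In replicate 1, 15 of the genes were bound, in replicate 2, 13, and in replicate 3, 9. Relative to each replicate's median the 14 peaks had medians of 1.73, 0.941 and 1.07, and at RpL36 and RpS28b no candidate of replicate 3 overlapped the peak. RpS10b stood at 3.01, 1.58 and 1.64 times the median. Replicate 1 was above the other replicates at RpS10b, RpS5a (2.78, 0.720 and 1.04) and RpL22 (2.26, 0.715 and 1.25). How many of all X genes have a summit in each replicate was close, at 14.0%, 15.3% and 14.2%.

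**Figure D5:**
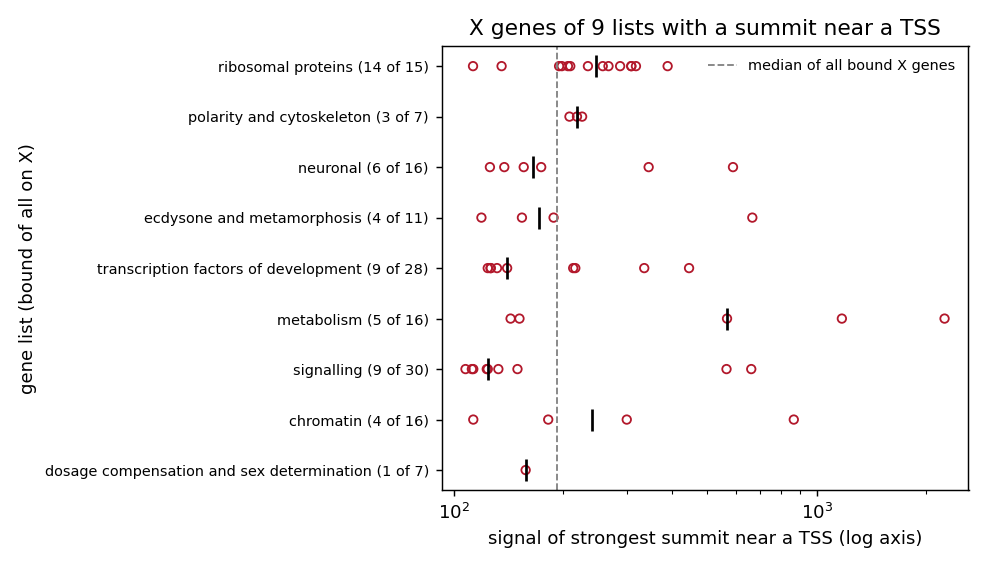
Signal of the strongest summit within 500 bp of a TSS (x axis, log scale) for the X genes of 9 lists (y axis, with the bound and the listed number); each point is 1 bound gene, bars are list medians, and the dashed line is the median of 192 over all bound X genes. Ribosomal protein genes run between 113 and 389, and the metabolic list reaches 2251 at Ugalt.

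Words were sought within 100 bp of each summit, on both strands. GAGAGAGA was in 63 of 927 X windows, or 6.80% (exact 95% interval 5.26 to 8.61), and in 5.36% of autosomal windows (4.60 to 6.22). Over all tiles of the same length as these windows it is in 1.54% of X and 1.05% of the autosomes. In the replicates the share was 5.46%, 7.68% and 8.58% on X, and 4.61%, 5.47% and 5.36% on the autosomes (exact sign permutation, two-sided p = 0.25, adjusted p = 0.321). Among peaks kept without replicate 3 the difference was -0.130 percentage points, and without replicate 2 it was 0.209. Windows 1000 bp to one side held it in 2.70% of cases on X and 2.06% on the autosomes. Apart from promoters it was in 6.01% of X windows and 3.91% of autosomal windows, and at promoters in 8.03% and 7.87% in the same order. The shorter GAGAG was in 34.2% of X windows and 34.9% of autosomal windows, where all tiles held it in 21.5% and 21.4%.

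CACTGAGA went the other way. It was in 21 X windows, or 2.27% (interval 1.41 to 3.44), and in 114 autosomal windows, or 3.66% (3.03 to 4.38), where tiles of X held it in 0.671% and tiles of the autosomes in 0.636%. The replicates gave 1.97%, 1.89% and 1.98% on X, and 3.22%, 3.17% and 3.68% on the autosomes, without overlap (exact sign permutation, two-sided p = 0.25, adjusted p = 0.321). The difference of -1.40 percentage points was -2.39, -2.46 and -2.72 without replicates 1, 2 and 3 in turn. This relation too was picked out after its values were seen. GGTCACACT was in 1 X window (0.108%) and in 22 autosomal windows (0.707%), beside 0.248% of X tiles and 0.187% of autosomal tiles. In the replicates its share was 0.219%, 0.445% and 0.440% on X, and 0.837%, 0.939% and 0.807% on the autosomes. CACACACA was in 9.17% of X windows and 7.93% of autosomal windows, where X tiles are also richer, at 5.77% beside 3.79%. TATAAA was in 27.2% of X windows and 29.7% of autosomal windows, beside 20.5% of X tiles and 22.1% of autosomal tiles. For the nuclear receptor, E-box and early embryonic words the exact intervals of X and the autosomes overlapped. AGGTCA, the first of them, was in 3.13% of X windows (3.06%, 4.01% and 3.30% in the replicates) and 3.24% of autosomal windows, below its share of tiles, 5.10% on X and 5.45% on the autosomes. CACGTG was in 2.05% of X windows and 1.96% of autosomal windows, beside 2.30% of X tiles and 2.41% of autosomal tiles. CAGGTAG was in 0.755% of X windows and 0.771% of autosomal windows, beside 1.00% of X tiles and 1.09% of autosomal tiles. TATCGATA was in 1.19% of X windows and 0.707% of autosomal windows, with overlapping intervals. It was in 0.706% of X tiles and 0.495% of autosomal tiles. The G and C content within 100 bp of the summit was 39.6% on X and 39.4% on the autosomes.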

How the data were processed

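ChIP-seq was done on whole prepupae in 3 biological replicates of 1 group. The authors deposited, per the file headers and text notes, relaxed lists of 30000 candidate regions for each replicate and for pooled reads, and an IDR-thresholded list, on dm6 and dm3, against 1 shared control alignment. Column 7 of each list is the authors' enrichment signal, which scales with depth. The deposited −log10 q-values, at their maximum for 75.7% of X peaks, were not used to rank. The deposited score of summit offset gave the summit position. How reads were aligned, which caller was used and where the IDR cutoff lay is not given in the sources used here. No column of another sample was used (0).

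From these, summits were assigned with pandas 2.3.3, numpy 2.4.6 and scipy 1.17.1 under Python 3.11.15 to Ensembl release 115 genes and the Release 6 genome, whose arm lengths equal those of dm6, and plotted with matplotlib 3.10.9. Each replicate's strongest candidates were its 4934 of highest signal, and an overlap of 1 bp made a region shared. X was compared with 2L, 3L and 3R by values per replicate, with exact two-sided sign permutation, whose smallest p is 0.25, and Benjamini-Hochberg adjustment over 9 relations. Intervals are exact binomial (95%) and cover counting error only, since depth is unknown. No read counts were used.

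Named are the 20 strongest and 3 weakest X peaks, the 15 genes with most summits, up to 4 bound members of each list, and roX1 and roX2. Also named are the 3 fullest and emptiest bins and the 3 longest empty stretches between summits. The members and lists were chosen with earlier results of these data known. Names outside this rule (Sdic, N, Polycomb paralogs, 3′ UTR hosts, ribosomal genes beyond 4, genes 200 to 300 bp upstream, and unbound genes) were chosen after their values were seen. Procedures were tested on simulated data with planted differences. Alternatives were other distances, denominators, arms, windows, merged peaks, stronger peaks, the dm3 lists and leaving out replicates. For the last, IDR peaks that overlapped a strongest candidate in both other replicates were kept, and no IDR list was made anew.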

Additional observations from a re-analysis of the deposited data

How the results depend on the processing

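Of 90 alternatives over 12 results, 41 moved a value by less than the SD between replicates (a count by less than 1.5 times), 38 moved it by more, and 11 turned its direction. The cause of these shifts was not tested. No paired analysis was possible because the samples form only 1 group, so no groups share replicate numbers, though X and autosomal values were set against each other within each replicate. The X to autosome ratio of peaks per Mb, 1.06, became 1.08 over unmasked bases and also over pooled candidates outside the list, 1.20 over protein-coding genes, 1.04 against 2L, 0.985 against 3L, which turned it round, 1.15 against 3R, 1.08 for peaks above the median signal and 1.07 without 2 Mb at the centromeric end. Without replicates in turn it ran between 1.07 and 1.13. The count ratio was 0.305 on dm3 and 0.298 on dm6. The promoter difference of 2.19 points turned to -2.44 at 200 bp and was 4.81 against 3L. The gene difference of 0.983 points turned to -0.294 at 200 bp and to -0.278 against 3L. The signal ratio of 1.01 turned to 0.995 against 3R, 0.974 at promoters and 0.999 on dm3, and ran between 0.983 and 1.04 without replicates by rank and between 0.975 and 1.02 by relative signal (chosen after seeing the data), below 1 without replicate 2 in both. X held 23.8% of the strongest 5% of peaks, and between 24.0% and 27.6% of the strongest 10% without replicates. The recurrence difference of 2.89 points ran between 0.943 and 4.41, both past the SD. The GAGAGAGA difference of 1.43 points turned to -0.722 for GAGAG, was 0.166 at promoters and ran between -0.130 (without replicate 3) and 1.32. X genes with 4 or more summits were 57, and 4 near TSSs alone; without replicates they ran between 34 and 41, as the lists shrank to 632 to 646 X peaks. Alternatives for the intergenic and CACTGAGA differences were chosen after seeing the data. The intergenic difference of -13.1 points was -11.8 against 2L, -18.7 against 3L, -8.41 against 3R, -16.5 above the median signal, -15.0 beyond 500 bp of a TSS, -12.2 among candidates outside the list, and between -15.5 and -13.7 without replicates. The CACTGAGA difference of -1.40 points was -0.486 within 50 bp, -0.363 at promoters, -1.95 elsewhere, and between -2.72 and -2.39 without replicates. Both kept their direction in every alternative run, though the lists without replicates are parts of the same IDR list. The lists hold no read counts, so the precision that depth gives is unknown.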
